A study of Mus musculus with 5 samples.

Results

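Killer lectin receptors are C-type lectin-like proteins by which natural killer (NK) cells and cytotoxic T cells read the surface of other cells. The 9 genes described here, Klrd1, Klrc1, Klrc2, Klre1, Klrk1, Klrb1c, Klra7, Klrg1 and Klra2, were taken by gene symbol, and all 9 were found among the 31053 genes of the count matrices. Raw counts of unique molecular identifiers (UMIs, 1 per captured transcript) were read in every library, in all cells and in cell classes gated on UMIs of marker genes that include none of the 9. The matrices come from hearts of mice that model the myocarditis caused by immune checkpoint inhibitors, drugs that block CTLA-4 or PD-1. The control group was Ctla4+/+Pdcd1-/- (4 mice, libraries called control replicates 1 and 2) and the disease group was Ctla4+/-Pdcd1-/- (10 mice, disease replicates 3, 4 and 5). Every mouse therefore lacked Pdcd1, and the groups differ by 1 copy of Ctla4. Hearts were digested and pooled, live nucleated cells were sorted, and libraries were made with the 5-prime single-cell chemistry of 10x Genomics. Age, strain and the number of hearts behind each library are not given in the sources used here. The genotype labels of control replicate 2 and disease replicate 4 read Pdcd2-/- and that of disease replicate 5 reads Pdcd3-/-, while the design text gives Pdcd1-/- for all mice, which is the reading used here. The sort dye is likewise DRAQ5 in the design text and in the label of control replicate 1, and DRAQ6 to DRAQ9 in the other labels.

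The genes lie together in the NK gene complex, and their products fall into groups by partner and ligand. CD94, the product of Klrd1, pairs with NKG2A (Klrc1), which carries an inhibitory motif, or with NKG2C (Klrc2), which signals through the adaptor DAP12 (Tyrobp), and these pairs bind the nonclassical class I molecule Qa-1 (H2-T23). NKG2D (Klrk1) is an activating receptor for stress-induced ligands and signals through DAP10 (Hcst), and activated CD8 T cells use it as well as NK cells. NKR-P1C, the NK1.1 antigen, is made by Klrb1c, Ly49G by Klra7 and the cadherin receptor KLRG1 by Klrg1. Klra2 encodes Ly49B, a member of the Ly49 family that is known from myeloid cells.

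The 5 libraries held between 6465 and 11358 barcodes and between 24991704 and 55053988 UMIs, and 37202 of 47319 barcodes were kept. The CD8 T gate (Cd3 genes with Cd8a or Cd8b1, no Cd4) took 444 cells of control replicate 1 (4.98% of that library), 42 of control replicate 2 (0.752%), 79 of disease replicate 3 (1.38%), 1947 of disease replicate 4 (20.4%) and 483 of disease replicate 5 (6.47%). NK cells (no Cd3 genes, with Ncr1 or with Nkg7, Tyrobp and one of Gzma, Prf1 and Eomes) numbered 27, 25, 12, 59 and 27 in replicates 1 to 5, so that NK values rest on few cells. CD4 T cells numbered 285 and macrophages 3748 over the libraries. Ncr1, which defines NK cells, ran from 323 to 484 UMIs per 1000000 UMIs of the gate (CPM) in NK cells and from 0 to 4.8 CPM in CD8 T cells. Among T cell genes in NK cells Cd5 was at 0 to 4.3 CPM and Trac at 25.8 to 55.2 CPM, against 102 to 352 CPM of Trac in CD8 T cells. Trbc2 was at 137 to 206 CPM in NK cells against 266 to 901 CPM in CD8 T cells, while Lck (242 to 363 against 328 to 591 CPM) and Cd2 (193 to 484 against 217 to 449 CPM), which NK cells also express, were close. Within CD8 T cells Il7r, the interleukin-7 receptor chain, was at 368 CPM in control replicate 2 and 298 CPM in disease replicate 3, against 46.0 to 55.5 CPM in the other libraries, and its part in the results on CD8 T cells was not tested. The targeted genes were still counted. In CD8 T cells Ctla4 was at 353 and 39.9 CPM in control libraries, against 167, 614 and 537 CPM in disease, and Pdcd1 at 627 and 102 against 333, 1118 and 852 CPM. A 5-prime tag need not lie in the deleted part, so these values do not check the labels. Libraries shared between 86 and 161 barcodes pairwise, at most 1.90% of the smaller library. The doublet caller marked 4 cells of control replicate 2 (0.0716%) and so did not work there.

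All 9 genes are on mouse chromosome 6 (GRCm38), from Klrg1 at chr6:122270596-122282882 to Klra2 at chr6:131219223-131247362, and 5 of them follow each other closely: Klre1 (chr6:129577905-129585827), Klrd1 (chr6:129591782-129598775), Klrk1 (chr6:129610323-129623864), Klrc2 (chr6:129647496-129660689) and Klrc1 (chr6:129666015-129678973). Klrb1c lies at chr6:128778485-128789215 and Klra7 at chr6:130218605-130233322. The 150 bases before the start site were available for 7 genes in the RefSeq promoter table (GRCm38.p6), not for Klrd1 and Klrg1. Printed are the 4 windows that hold TGTGGT or its reverse complement ACCACA (in capitals), the core bound by RUNX factors, and that of Klra2, the gene counted mostly in macrophages, which holds none. All 5 are on the minus strand and are written 5′ to 3′ towards the gene, with Klrc1 at chr6:129678974-129679123, Klrc2 at chr6:129660597-129660746, Klrk1 at chr6:129623865-129624014, Klrb1c at chr6:128788642-128788791 and Klra2 at chr6:131247363-131247512.
Klrc1: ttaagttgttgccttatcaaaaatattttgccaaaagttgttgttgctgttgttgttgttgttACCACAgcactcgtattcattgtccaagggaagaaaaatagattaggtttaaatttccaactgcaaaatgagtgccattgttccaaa
Klrc2: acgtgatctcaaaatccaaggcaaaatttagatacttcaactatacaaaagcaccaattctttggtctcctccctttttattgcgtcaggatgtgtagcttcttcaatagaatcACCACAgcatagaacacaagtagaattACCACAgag
Klrk1: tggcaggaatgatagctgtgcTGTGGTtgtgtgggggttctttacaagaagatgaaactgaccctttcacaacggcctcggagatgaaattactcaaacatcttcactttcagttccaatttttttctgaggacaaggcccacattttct
Klrb1c: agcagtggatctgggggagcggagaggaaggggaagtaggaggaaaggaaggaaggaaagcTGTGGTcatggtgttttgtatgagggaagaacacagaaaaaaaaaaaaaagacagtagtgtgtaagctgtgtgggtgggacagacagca
Klra2: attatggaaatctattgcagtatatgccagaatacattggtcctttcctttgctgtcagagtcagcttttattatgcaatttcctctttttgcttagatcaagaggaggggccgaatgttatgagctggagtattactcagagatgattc
The core was found, on either strand, in 4 of the 7 windows, with 2 copies in Klrc2, and in 8.53% of the 27025 windows of all genes in the table. Its first base lay 87 bases before the start in Klrc1, 129 in Klrk1, 89 in Klrb1c, and 36 and 9 in Klrc2. The windows of Klre1, Klra7 and Klra2 held none. The T-box core GGTGTGA, or TCACACC, was in 0 of the 7 windows and in 1.94% of all windows. The motifs were chosen after the sequences had been seen and others tried, and a match is a string of letters, not a bound site. The start sites used by RefSeq for Klrc2, Klrb1c, Klre1 and Klra7 lie inside the GRCm38 gene bounds given above.

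The genes also share sequence, which matters for short reads from the 5-prime end. Of the 50-base stretches in the first 500 bases of the transcript, 49.2% of those of Klrc2 were also found in Klrc3, 20.8% of those of Klrb1c in Klrb1a or Gm44511, and 11.1% of those of Klrc1 in Klrc2. The share was 0.222% for Klre1 and 0% for Klrd1, Klrk1, Klra7, Klrg1 and Klra2. Counts of Klrc2 and Klrb1c, and to a lesser degree Klrc1, are therefore uncertain as to which copy they came from.

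Transcripts of the 9 genes were spread very differently over the cells of the heart. For these shares a cell was counted in a class only if it met no other gate, so the 92 cells that met several gates were counted in none. CD8 T cells counted so, 8.04% of all kept cells, held 79.0% of the Klrd1 UMIs, 77.9% of Klrc1 and 71.1% of Klre1. NK cells were 0.395% of the cells, yet held 49.4% of the Klrb1c UMIs, 43.7% of Klra7, 27.7% of Klrg1 and 23.8% of Klrc2. Macrophages held 68.9% of the Klra2 UMIs and 19.3% of those of Klrk1, against 43.5% of Klrk1 in CD8 T cells. Between 15.7% (Klrd1) and 38.5% (Klrb1c) of the UMIs lay in cells that met none of the 9 gates. These shares pool the libraries, and disease replicate 4 with its many CD8 T cells weighs most in them.

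**Figure D1:**
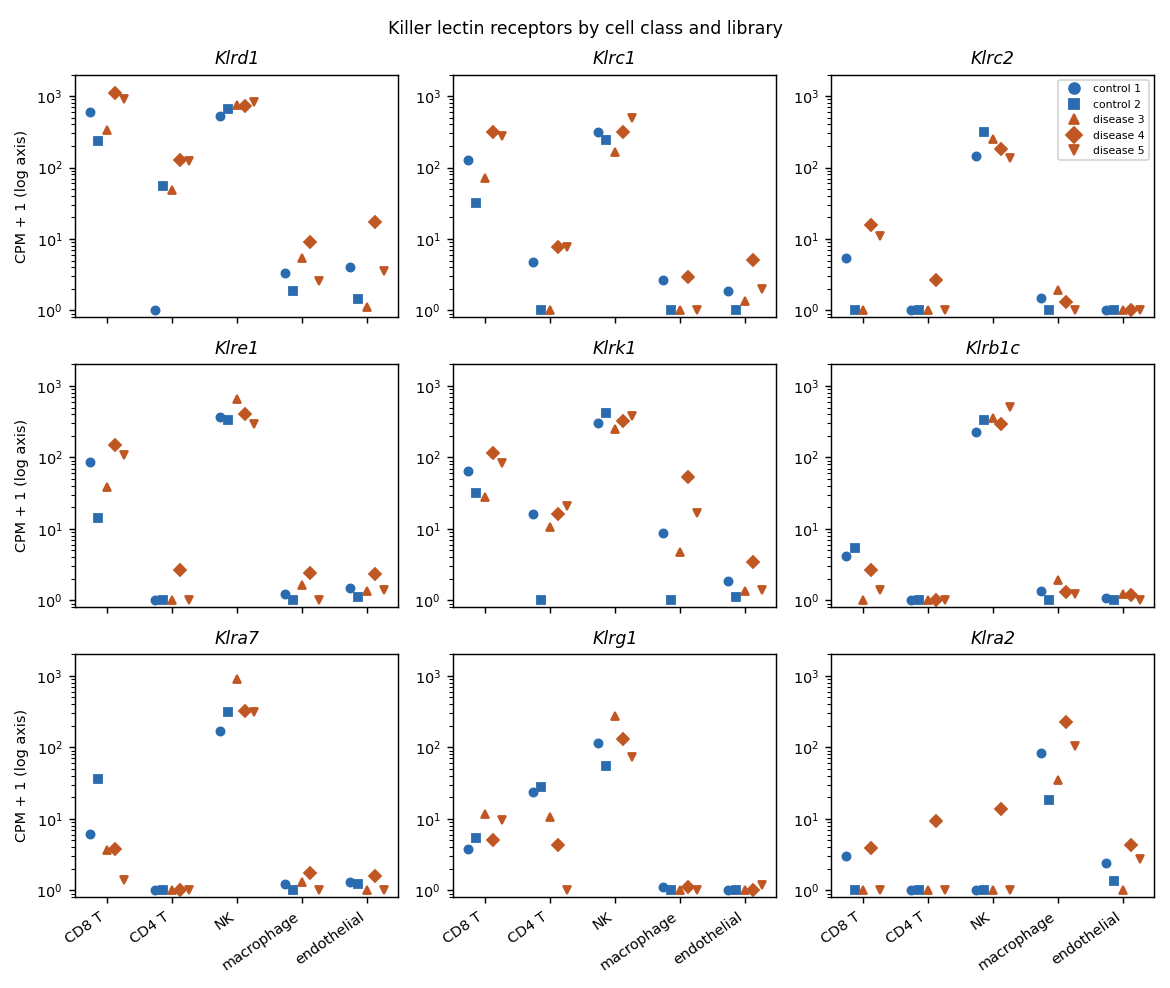
CPM + 1 on a log axis for each gene (panels) in 5 gated classes (CD8 T, CD4 T, NK, macrophage and endothelial cells on the x axis), with 1 point per library, blue for control and orange for disease. Klrd1 reaches 230 to 1117 CPM in CD8 T cells and 525 to 823 CPM in NK cells, while Klrb1c is at 226 to 508 CPM in NK cells and at most 4.43 CPM in CD8 T cells, and Klra2 is at 17.6 to 228 CPM in macrophages and at most 12.9 CPM in the other 4 classes shown.

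The comparison of NK cells with CD8 T cells, made within each library, asked which receptors the cytotoxic classes share. Of the 8 genes with enough counts to test, 7 were higher in NK cells (edgeR quasi-likelihood test, adjusted p under 0.05), where 5.46% of all 3955 tested genes were higher. Klrc2, Klrb1c, Klra7 and Klrg1 passed the filter on low counts only through NK cells, where they are high. The count therefore supports nothing by itself, and these 4 genes are described in this comparison with no p. Klrd1 was the gene not called. Its level in NK cells was 525 and 659 CPM in control replicates 1 and 2 and 745, 727 and 823 CPM in disease replicates 3, 4 and 5. In CD8 T cells it was 590 and 230 CPM in the controls and 331, 1117 and 896 CPM in disease. NK cells thus lay above CD8 T cells in 2 libraries and below them in the other 3. The log2 fold change was 0.05 (SE 0.23, adjusted p 0.937 by edgeR), with 2 SE on either side reaching from -0.41 to 0.51. Its sign turned in 4 of 14 alternative settings.

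The partners of CD94 divided. Klrc1, the inhibitory NKG2A chain, was at 315 and 242 CPM in NK cells of the controls against 166, 310 and 496 CPM in disease. In CD8 T cells it was at 128 and 31.0 CPM and at 69.9, 313 and 279 CPM. The classes overlapped, and NK cells were higher in 4 of 5 libraries (log2 fold change 0.83 with SE 0.25, adjusted p 0.0404 by edgeR). That call was lost in 7 of 14 alternatives, among them each fit without control replicate 1, control replicate 2, disease replicate 3 or disease replicate 5, with adjusted p up to 0.433 over all of them. Klrc2, the activating NKG2C chain, was at 145 and 310 CPM in NK cells of the controls against 248, 181 and 133 CPM in disease. CD8 T cells had 4.36 and 0 CPM in the controls and 0, 14.9 and 10.2 CPM in disease, below NK cells in every library (log2 fold change 4.26 with SE 0.39). A count of 0 in control replicate 2 allows up to 13.3 CPM and in disease replicate 3 up to 8.06 CPM, at 3 counts per library.

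Klre1 and Klrk1 were higher in NK cells by similar amounts. Klre1, whose product pairs with KLRI chains, was at 372, 336, 662, 409 and 291 CPM in NK cells of replicates 1 to 5, and at 84.1, 13.3, 37.6, 148 and 109 CPM in their CD8 T cells. The groups of values did not overlap, and the log2 fold change was 2.12 (SE 0.30, adjusted p 1.12e-04 by edgeR). NKG2D transcripts (Klrk1) were at 307, 417, 248, 327 and 375 CPM in NK cells and at 63.5, 31.0, 26.9, 114 and 82.8 CPM in CD8 T cells. Again every NK value lay above every CD8 value, with a log2 fold change of 2.14 (SE 0.23, adjusted p 4.35e-06 by edgeR).

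For Klrb1c, Klra7 and Klrg1 the NK values lay far above those of CD8 T cells. The NK1.1 gene Klrb1c was at 226 and 336 CPM in NK cells of the controls against 359, 293 and 508 CPM in disease. In all 2995 CD8 T cells it had 25 UMIs, at most 4.43 CPM in a library. Its log2 fold change was 7.40 (SE 0.40). Klra7 was at 170, 310, 911, 327 and 315 CPM in NK cells of replicates 1 to 5, and at 5.16, 35.4, 2.69, 2.82 and 0.391 CPM in CD8 T cells (log2 fold change 6.14 with SE 0.53). Klrg1 was at 113, 53.8, 276, 129 and 72.6 CPM in NK cells and at 2.78, 4.43, 10.8, 4.06 and 8.60 CPM in CD8 T cells (log2 fold change 4.40 with SE 0.43). For each of the 3 genes the NK value was the higher one in 5 of 5 libraries. KLRG1 is a usual mark of short-lived effector CD8 T cells in infection, and here 70 Klrg1 UMIs were counted in the CD8 T cells of the 5 libraries.

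**Figure D2:**
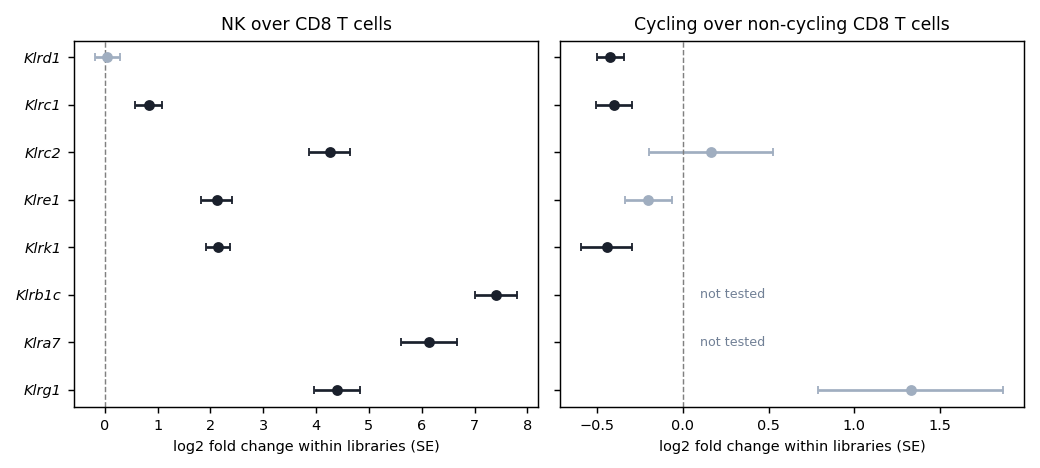
Log2 fold changes from edgeR within libraries (points) with SE (bars), for NK over CD8 T cells on the left and for cycling over non-cycling CD8 T cells (2 or more or 0 UMIs of 5 cycling genes) on the right. Dark points have an adjusted p under 0.05. On the left Klrc2, Klrb1c, Klra7 and Klrg1 passed the filter on low counts only through NK cells, so their dark colour supports nothing by itself. Fold changes on the left run from 0.05 for Klrd1 to 7.40 for Klrb1c, and on the right from -0.44 for Klrk1 to 1.33 for Klrg1.

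Within the 150 NK cells the genes were not equally widespread. Klrd1 had a UMI in 76.0% of the cells, Klrb1c in 62.7%, Klre1 in 62.0% and Klrk1 in 54.7%. Klra7 was seen in 32.0% and Klrg1 in 22.0% of them. The cells that held Klra7 had 3.73 UMIs of it on average, and those that held Klrb1c had 1.87. In disease replicate 3 the 33 Klra7 UMIs came from 5 of 12 cells, at 6.60 UMIs per cell, so its high CPM rests on those cells. Ly49 receptors are known to be switched on in subsets of NK cells. Klra2 had 3 UMIs in NK cells, all in disease replicate 4.

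Cells were then thinned to 1000 UMIs each, so that depth did not set how many of the 8 lymphocyte genes (all but Klra2) could be seen. At least 2 genes were seen in 70.4 and 68.0% of NK cells of the controls and in 66.7, 68.4 and 62.5% in disease. The same held for 10.2 and 2.38% of CD8 T cells of the controls and 10.1, 26.1 and 22.0% in disease, and for 0 to 2.56% of CD4 T cells. NK cells lay above CD8 T cells in every library. Within CD8 T cells of disease replicate 4, Klrc1 was seen in 29.4% of the 963 cells with Klrd1 and in 15.2% of the 942 without it. The shares were 30.7 and 13.7% in disease replicate 5, and 9.86 and 9.03% in control replicate 1. Klrk1 was seen in 13.0% of the cells with Klrd1 and in 5.73% of those without in disease replicate 4, in 11.7 and 7.94% in disease replicate 5, and in 11.3 and 2.68% in control replicate 1. Klrg1 was seen in 0.208 and 0.849% in disease replicate 4, 0.488 and 0% in disease replicate 5 and 0 and 0.334% in control replicate 1. Disease replicate 3 had only 18 such cells with Klrd1 and 61 without. There the shares were 11.1 and 6.56% for Klrc1, 11.1 and 0% for Klrk1 and 5.56 and 1.64% for Klrg1. In control replicate 2 only 8 thinned CD8 T cells had Klrd1, and neither these nor the 34 without it had Klrc1, Klrk1 or Klre1.

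**Figure D3:**
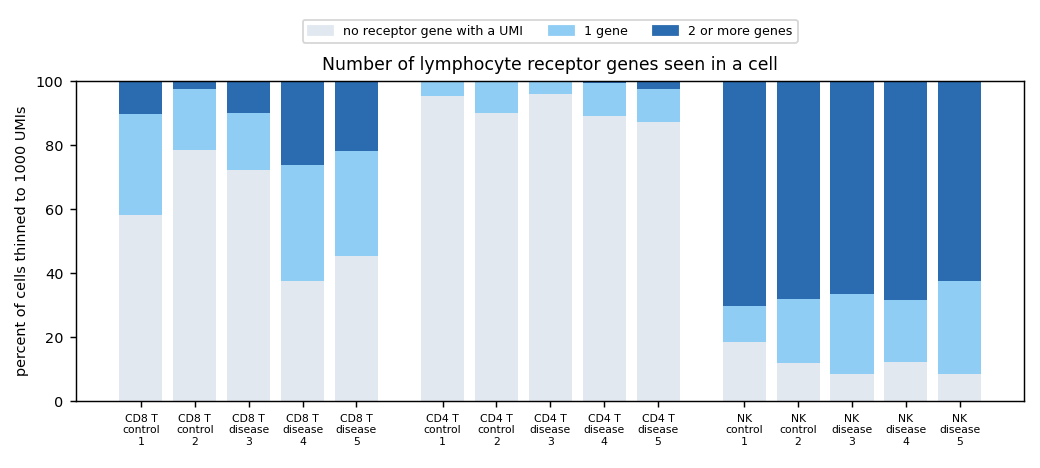
Percent of cells (y axis) with no, 1 or at least 2 of the 8 lymphocyte receptor genes after thinning to 1000 UMIs, for each library of the CD8 T, CD4 T and NK gates (bars). At least 2 genes were seen in 62.5 to 70.4% of NK cells and in 2.38 to 26.1% of CD8 T cells.

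CD8 T cells were next compared with CD4 T cells of the same libraries. The 4 genes with enough counts, Klrd1, Klrc1, Klrk1 and Klre1, were each higher in CD8 T cells, where 3.38% of 4766 tested genes were higher. The last 3 passed the filter on low counts only through CD8 T cells, where they are high, so this count supports nothing by itself and they are described with no p. Klrd1 in CD4 T cells was at 0 and 54.5 CPM in control libraries, against 48.1, 127 and 121 CPM in disease, below the CD8 value of the same library in each case (log2 fold change 3.46 with SE 0.35, adjusted p 1.12e-06 by edgeR). With no replicate block it was 3.17 and not called (adjusted p 0.0864 by edgeR). Klrc1 had 6 UMIs in all CD4 T cells (log2 fold change 5.49 with SE 0.34) and Klrk1 had 17 (2.54 with SE 0.34). Klre1 had 1 UMI in CD4 T cells and 1825 in CD8 T cells, a pooled ratio of 148 with a 95% exact interval from 26.6 to 5863 that covers counting error only. Klrc2 had 1 UMI there, Klra2 had 5, and Klrb1c and Klra7 had 0. Klrg1 had 11 UMIs there, too few to test, and 0 in the 13 CD4 cells with a Foxp3 UMI, the mark of regulatory T cells. Of the 11 UMIs 8 were in the controls (22.7 and 27.3 CPM, above the CD8 T cells of the same libraries). They came from 1 of 43 cells in control replicate 1 (6 UMIs) and 2 of 20 cells in control replicate 2 (2 UMIs).

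Cycling CD8 T cells (2 or more UMIs in the sum of Ccnb2, Cdk1, Birc5, Top2a and Mki67) could be set against cells with none in control replicate 1 and disease replicates 4 and 5. Lower in cycling cells were 3 of 6 tested genes, against 9.96% of 8564 genes, and the changes were small. Klrd1 was at 531, 793 and 674 CPM in cycling cells of these libraries and at 588, 1144 and 857 CPM in the others (log2 fold change -0.42 with SE 0.08, adjusted p 6.90e-05 by edgeR). Klrc1 had a log2 fold change of -0.40 (SE 0.11, adjusted p 0.00379) and Klrk1 of -0.44 (SE 0.15, adjusted p 0.0262). Klrg1 was at 15.0, 9.55 and 10.6 CPM in cycling cells and at 0, 3.62 and 10.1 CPM in the others, with a log2 fold change of 1.33 (SE 0.54, adjusted p 0.0738 by edgeR). That value rests on 23 UMIs in cycling cells, 6 of them from 1 cell of control replicate 1, and leaving out disease replicate 5 gave an adjusted p of 0.0029, leaving out control replicate 1 one of 0.272, and allowing no UMI of other lineages one of 0.049. Klrg1 passed the filter on low counts only through cycling cells. Klre1 (-0.20, SE 0.14) and Klrc2 (0.16, SE 0.36) did not pass. Klrb1c and Klra7 were at 0 UMIs in cycling cells and at 24 and 34 in the others, too few to test. Under DESeq2 1 call, that of Klrd1, was left. Klrc1 was not called without disease replicate 4 or 5, nor Klrk1 without control replicate 1 or disease replicate 5. Cycling cells were deeper, with a median of 7712, 7058 and 9248 UMIs against 4830, 3695 and 4188. After thinning to 1000 UMIs Klrd1 was seen in 32.5, 45.0 and 47.7% of cycling cells and in 30.5, 50.5 and 38.1% of the others, so at equal depth the share was higher in cycling cells in 2 of 3 libraries, unlike the CPM. With no replicate block 0 genes were called.

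Disease was then compared with control. No gene of the 9 passed in any of the 4 sums. In the sums over all cells edgeR called 0 of 9, and 6.43% of 16074 genes were called, nearly all lower in disease. No gene of the 9 had an unadjusted p under 0.05, which 16.1% of all genes had, and DESeq2 also called 0. Klrd1 over all cells was at 45.2 and 7.34 CPM in control libraries, against 9.08, 260 and 83.8 CPM in disease. Disease replicates 4 and 5 were highest, disease replicate 3 lay between the controls, and the log2 fold change was 2.26 (SE 1.56, adjusted p 0.523 by edgeR). It was 0.74 without disease replicate 4 and 4.17 without control replicate 1. Here and in all fits without a control replicate, the 1 control library left is assumed to vary like the disease libraries. The log2 fold change was 2.29 for Klrc1, 1.86 for Klre1, 1.81 for Klrk1, 1.49 for Klra2, 1.12 for Klrc2 and 0.49 for Klra7. In such sums more CD8 T cells and more RNA per cell cannot be told apart, and for Klrd1, Klrc1, Klre1 and Klrk1 the order of the libraries was that of their share of CD8 T cells. The groups did not overlap for Klrg1, at 0.863 and 0.380 CPM against 1.24, 2.38 and 1.09 CPM (log2 fold change 1.36 with SE 0.62, adjusted p 0.393 by edgeR), and for Klrb1c, at 1.58 and 1.52 against 1.74, 2.96 and 1.76 CPM (log2 fold change 0.54, SE 0.40). All disease libraries lay higher for 16% of genes.

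Within CD8 T cells 7 of the 9 genes could be tested and 0 were called by edgeR, where 4.32% of 9578 genes were called. DESeq2 called 0 as well, and an unadjusted p under 0.05 was given to 1 gene, Klra7, by edgeR and to 2 by DESeq2, against 14.5% of all genes by edgeR. Klra7 passed the filter on low counts only through the controls, and Klrc2 and Klrg1 only through disease, in each case where they are higher. These counts therefore support nothing by themselves. Klrb1c and Klra2 had too few counts to test. Klrd1 was at 590 and 230 CPM in control libraries, against 331, 1117 and 896 CPM in disease (log2 fold change 0.89 with SE 0.53, adjusted p 0.55 by edgeR). Klrc1, at 128 and 31.0 against 69.9, 313 and 279 CPM, had a log2 fold change of 1.34 (SE 0.66, adjusted p 0.441 by edgeR). For these genes, as for Klrc2 (1.49, SE 0.85), Klre1 (0.82, SE 0.64) and Klrk1 (0.58, SE 0.52), disease replicate 3 lay below control replicate 1 and the groups overlapped. They overlapped for Klrg1 too (1.12, SE 0.77). Without control replicate 1 the fold change of Klrc1 was 2.78 and without control replicate 2 it was 0.82. With single libraries left out it ran from 0.42 to 1.69 for Klrd1, 1.31 to 8.05 for Klrc2, 0.30 to 2.87 for Klre1 and 0.18 to 1.27 for Klrk1. With no filter on low counts Klrc1 (adjusted p 0.0159 by edgeR) and Klra7 passed. Over the other alternatives that gave a value the adjusted p of Klrc1 lay between 0.19 and 0.838.

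The share of CD8 T cells with a UMI, after thinning to 1000 UMIs, gave the same order of libraries as CPM for Klrd1 and Klrc1, but not for Klre1 and Klrk1. Klrd1 was seen in 32.2 and 19.0% of the control cells and in 22.8, 50.6 and 42.5% of the disease cells. B cells, which should lack it, showed it in 1.61, 0, 0, 2.49 and 0.498%, at a median depth of 2353 to 3076 UMIs against 3953 to 5168 UMIs in CD8 T cells, before thinning. Klrc1 was seen in 9.30 and 0% of control cells (0 of 42 at this thinned depth, which allows up to 7.14%, while 2 of the 42 held it before thinning) and in 7.59, 22.4 and 21% of disease cells. Klre1 was seen in 5.67 and 0% against 6.33, 11.4 and 8.92%, so that disease replicate 3 lay above control replicate 1, and below it after thinning to 2000 UMIs (5.33 against 13.7%). Klrk1 was seen in 5.44 and 0% against 2.53, 9.40 and 9.54%. The differences of the group means were 13.0 percentage points for Klrd1, 12.3 for Klrc1, 6.06 for Klre1 and 4.44 for Klrk1. Leaving out 1 library gave 6.42 to 20.9, 7.67 to 17.0, 3.23 to 8.90 and 1.7 to 7.16 points. In the two-sided exact permutation test over the 10 ways to label the libraries, whose smallest p is 0.1, the differences with all libraries gave 0.4, 0.3, 0.2 and 0.3. The smallest, 0.1, came for Klrb1c and Klra7, which were lower in disease, and was 1 and 0.6 after thinning to 2000 UMIs. Adjusted p over the 9 genes was at least 0.45.

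Klra7 in CD8 T cells went the other way. It was at 5.16 and 35.4 CPM in control libraries, against 2.69, 2.82 and 0.391 CPM in disease, and the groups did not overlap. All disease libraries lay lower for 18.3% of tested genes and higher for 14.6%. These CPM stand for 13 and 8 UMIs against 1, 25 and 1, and the 8 UMIs of control replicate 2 came from 2 of 42 cells. The log2 fold change was -2.72 (SE 1.08), and -1.39 without control replicate 2. Klra7 passed the filter on low counts only through the controls, where it is high, so it is described here with no p.

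In NK cells 8 genes were tested and edgeR called 0, where 6.2% of 1339 genes were called. None had an unadjusted p under 0.05, which 17.4% of all genes had, and DESeq2 called 0. Klrg1 passed the filter on low counts only through disease. Klrd1 was lower in both controls, at 525 and 659 CPM, than in the disease libraries, at 745, 727 and 823 CPM (log2 fold change 0.38 with SE 0.27, adjusted p 0.552 by edgeR). All disease libraries lay higher for 14.2% of the genes tested. Before thinning, the share of NK cells with a Klrd1 UMI was lower in disease, at 77.8 and 80% in the controls against 66.7, 76.3 and 74.1%. After thinning to 1000 UMIs it was higher, at 44.4 and 40% against 66.7, 56.1 and 45.8%. The log2 fold changes of the others were -0.28 for Klrc2 (SE 0.44), -0.14 for Klrk1 (SE 0.32), 0.27 for Klrc1 (SE 0.41), 0.30 for Klre1 (SE 0.38), 0.46 for Klrb1c (SE 0.36), 0.69 for Klrg1 (SE 0.63) and 1.03 for Klra7 (SE 0.53). On TMM-scaled CPM the groups of these genes overlapped. On plain CPM they did so too, except for Klra7, given above, whose lowest disease library (315 CPM) lay just above the higher control (310 CPM). After thinning to 1000 UMIs, Klrc2 was seen in 22.2 and 32% of the control NK cells and in 8.33, 14.0 and 8.33% of the disease NK cells, and Klrk1 in 29.6 and 40% against 25, 22.8 and 20.8%. The exact permutation p was 0.1 for both, the smallest it can give, with an adjusted p of 0.45 over the 9 genes, and thinned shares were not computed for all genes. After thinning to 2000 UMIs the p was 0.9 for Klrc2 and 0.3 for Klrk1. These shares rest on 12 to 57 cells a library.

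**Figure D4:**
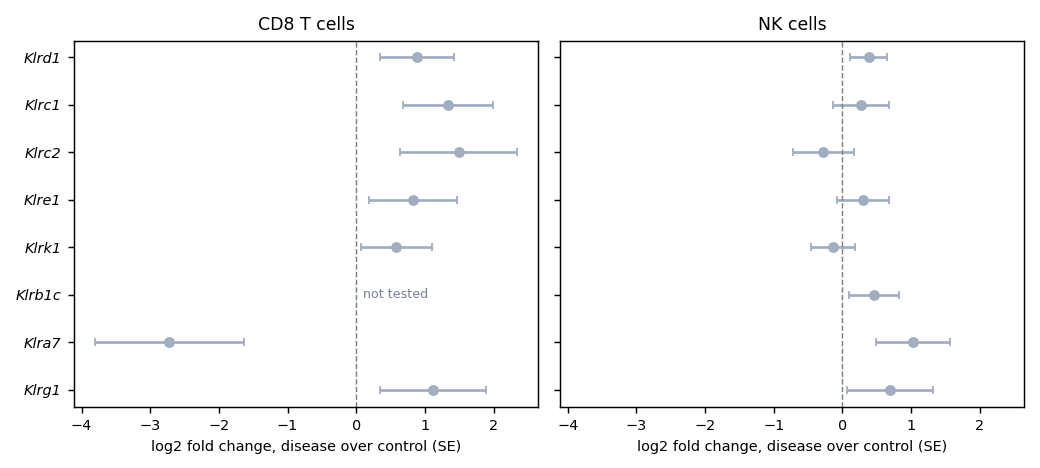
Log2 fold changes of disease over control from edgeR (points) with SE (bars) in CD8 T cells and NK cells. No point has an adjusted p under 0.05. In CD8 T cells Klra7 passed the filter on low counts only through the controls, and Klrc2 and Klrg1 only through disease. In NK cells Klrg1 did so only through disease. In CD8 T cells they run from -2.72 for Klra7 to 1.49 for Klrc2, and in NK cells from -0.28 for Klrc2 to 1.03 for Klra7.

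Whether the change differed between the classes was tested as a class by group term. Of 3955 genes edgeR called 0 (0%), as did DESeq2, and 3 of the 8 genes described here had an unadjusted p under 0.05, against 3.21% of all genes. For Klra7 the change had opposite signs in the separate fits, -2.72 in CD8 T cells and 1.03 in NK cells, and the term, NK minus CD8, was 3.48 on the log2 scale (SE 0.75). The term of Klra7 was 4.80 without control replicate 1, which leaves 1 control library with 8 Klra7 UMIs in 2 CD8 T cells. With no filter on low counts it was 3.35 and was called, and over all alternatives it ran from 2.55 to 4.82. The term was 2.16 for Klrb1c (SE 0.83) and -1.07 for Klrc1 (SE 0.47), and neither was called. The CD8 side rests on 48 UMIs for Klra7 and on 25 for Klrb1c, too few to test Klrb1c within CD8 T cells, so 2 of these 3 small p-values rest on few UMIs in CD8 T cells. The term was -1.31 for Klrc2, -0.58 for Klrg1, -0.55 for Klre1, -0.50 for Klrk1 and -0.35 for Klrd1, which did not pass.

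Macrophages were read mainly for Klra2. It was at 83.1 and 17.6 CPM in control libraries, against 33.9, 228 and 105 CPM in disease. Disease replicates 4 and 5 were highest and disease replicate 3 lay between the controls (log2 fold change 1.39 with SE 0.93, adjusted p 0.445 by edgeR). Klrk1 was at 7.71 and 0 CPM in control macrophages against 3.80, 51.8 and 16.0 CPM in disease (log2 fold change 2.48 with SE 1.23). These 2 and Klrd1 were the genes that could be tested, and 0 of 3 were called by edgeR or DESeq2 or had an unadjusted p under 0.05, where 7.18% of 10976 genes were called and 18.6% had such a p. The groups overlapped for all 3, while all disease libraries lay higher for 18% of genes. Klrk1 and Klrd1 passed the filter on low counts only through disease, where they are higher. The count out of 3 therefore supports nothing by itself, and these 2 are given no p. The other 6 genes had too few counts in macrophages to test. Klra2 had a log2 fold change of 3.05 without control replicate 1 and 0.41 without disease replicate 4. That of Klrk1 ran from 1.04 to 9.95 with single libraries left out. With no filter on low counts Klra2 (adjusted p 0.0489 by edgeR) and Klrk1 passed. After thinning, Klra2 was seen in 5.32 and 1.45% of control macrophages and in 2.40, 16.8 and 5.71% of disease macrophages, with an exact permutation p of 0.5. In endothelial cells it was seen in 0.268, 0, 0, 0.485 and 0.321%, at a median depth of 2408 to 3222 UMIs against 5480 to 7647 UMIs in macrophages.

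Within macrophages Klra2 and Klrk1 went with Cxcl9, the interferon-induced chemokine that draws T cells. Macrophages with a Cxcl9 UMI made up 12.6 and 2.16% of the controls and 4.37, 56.1 and 24.1% of the disease libraries, and control replicate 2, with 9 such cells, was left out of the test. Klra2 was at 166 CPM in Cxcl9 macrophages of control replicate 1 and at 83.8, 278 and 219 CPM in those of disease replicates 3, 4 and 5. Macrophages without Cxcl9 had 61.6 CPM and 29.2, 113 and 35.7 CPM. Each library was higher with Cxcl9 (log2 fold change 1.88 with SE 0.19, adjusted p 3.49e-06 by edgeR). For Klrk1 the levels were 22.0, 25.5, 70.3 and 37.7 CPM with Cxcl9 and 4.00, 1.74, 9.31 and 2.88 CPM without, higher in 4 of 4 libraries (log2 fold change 3.18 with SE 0.23, adjusted p 9.84e-08 by edgeR). Klrd1 had a log2 fold change of 0.27 (SE 0.41, adjusted p 0.681 by edgeR). So 2 of 3 tested genes were higher in Cxcl9 macrophages, where 12.6% of 10437 genes were higher, in a comparison added after the data were seen. The calls of Klra2 and Klrk1 held in all 11 alternatives.

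Cxcl9 macrophages were also deeper, with medians of 10030 to 11514 UMIs in the tested libraries against 5321 to 6466 without Cxcl9. In cells thinned to 1000 UMIs Klra2 was seen in 11.9, 13.6, 23.4 and 14.4% of Cxcl9 macrophages and in 4.37, 1.89, 8.33 and 2.93% of the others, in the library order above. Klrk1 was seen in 2.24, 0, 7.21 and 1.96% with Cxcl9 and in 0.32, 0, 1.04 and 0.209% without. Klrk1 and Klrd1 UMIs were also set against each other. In CD8 T cells there was 0.101 UMI of Klrk1 for each UMI of Klrd1 over the libraries, in NK cells 0.489, and in Cxcl9 macrophages 9.60 (557 against 58 UMIs) and in the other macrophages 1.1. Libraries of these other macrophages ran from 0 in control replicate 2 (0 against 2 UMIs) and 0.455 in disease replicate 3 to 2 in control replicate 1 and disease replicate 5. In endothelial cells the ratio was 0.204 and in fibroblasts 0.135. Every tested library had a ratio of at least 2.33 in Cxcl9 macrophages and at most 0.107 in CD8 T cells for the same 4 libraries.

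**Figure D5:**
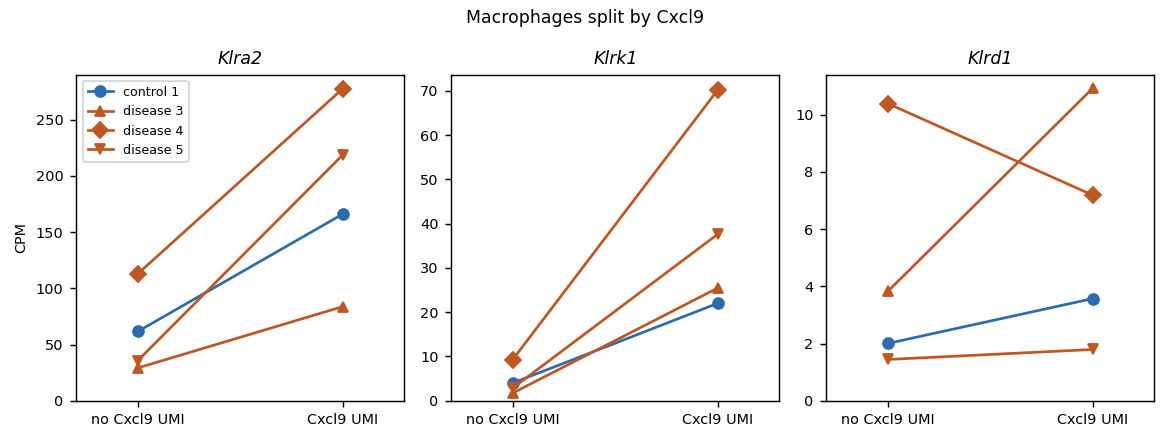
CPM of Klra2, Klrk1 and Klrd1 (y axes, separate scales from 0) in macrophages without and with a Cxcl9 UMI, with 1 line per library that had at least 10 cells of each kind. Klra2 and Klrk1 are higher with Cxcl9 in 4 of 4 lines, and Klrd1 stays under 11 CPM.

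Macrophages with at least 2 UMIs over Lyve1, Timd4 and Folr2, genes of resident macrophages, had less Klra2 than those with none, in a comparison also added after the data were seen. Klra2 was at 45.9 and 7.25 CPM in these cells of the controls against 13.7, 161 and 72.3 CPM in disease. In cells with none it was at 135, 44.8, 71.7, 281 and 156 CPM in replicates 1 to 5. It was lower in 5 of 5 libraries (log2 fold change -1.52 with SE 0.16, adjusted p 4.67e-07 by edgeR). Klrk1 was lower in 4 of 5 libraries and at 0 in both kinds in control replicate 2 (log2 fold change -1.66 with SE 0.19, adjusted p 1.87e-06 by edgeR). Klrd1 was not called (-0.70, SE 0.41). It passed the filter on low counts only through the macrophages with none of these UMIs, where it is higher, and is given no p. Lower were thus 2 of 3 tested genes, where 13.4% of 10351 genes were lower. With no replicate block neither was called, at -1.36 for Klra2 (adjusted p 0.385 by edgeR) and -1.65 for Klrk1 (adjusted p 0.427 by edgeR).

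Other myeloid cells held Klra2 as well. In monocytes it was at 49.0 and 115 CPM in control libraries, against 110, 238 and 134 CPM in disease, from 19 to 65 cells a library. Monocytes lay above macrophages in 4 of 5 libraries, by a log2 fold change of 0.56 (SE 0.31, adjusted p 0.212 by edgeR). Neutrophils had 43.0 and 100 CPM in the controls and 290, 86.7 and 61.0 CPM in disease, from 3 to 13 UMIs a library. Klrd1 was the gene called in monocytes over macrophages, 1 of 3, where 8.2% of 9663 genes were higher, with a log2 fold change of 3.1 (SE 0.73). It passed the filter on low counts only through monocytes, rested on 33 UMIs, 10 of them from 1 cell of control replicate 2, was at 0 UMIs in 2 libraries, and was lost under DESeq2 and without disease replicate 5. Klrk1 was at 0.12 (SE 0.52, adjusted p 0.907 by edgeR).

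Other genes of the family, their adaptors and ligands were read in the same fits from a list of 39, of which Klrh1, Raet1a, Raet1b and Raet1c were not analysed here. In NK cells against CD8 T cells 10 of 19 tested were higher and 1 lower, where 5.46 and 6.42% of all genes were. Of the 10, all but Tyrobp passed the filter on low counts only through NK cells, and Ptpn11 only through CD8 T cells, so these counts support nothing by themselves. Higher were the Ly49 genes Klra4 (log2 fold change 9.58), Klra8 (7.66), Klra1 (5.47), Klra9 (5.14) and Klra3 (2.51), the NKR-P1 genes Klrb1b (6.48), Klrb1a (6.26) and Klrb1f (5.69), Klri2 (2.60), whose product pairs with KLRE1, and Tyrobp (5.90), which helped to set the NK gate. Members of these families share sequence, so their counts are uncertain. Lower was Ptpn11 (-1.52), the phosphatase SHP-2. Hcst, the adaptor of NKG2D, was at 630 to 911 CPM in NK cells and at 549 to 795 CPM in CD8 T cells.

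Between disease and control no gene of the list was higher in any of the 4 sums. Called lower were 2 of 29 tested over all cells, 1 of 17 in CD8 T cells, 2 of 14 in NK cells and 2 of 15 in macrophages, against 6.39, 4.3, 6.12 and 6.82% of all genes. H2-D1, a classical class I ligand of Ly49 receptors, was lower in all 4 (log2 fold change -2.07, -2.65, -2.83 and -2.03), H2-K1 in NK cells (-1.90), and Ptpn11 over all cells (-0.89) and in macrophages (-0.86). H2-T23, which encodes the ligand of the CD94 pairs, was not called in any of them, at log2 fold changes of 0.37, 0.21, -0.20 and 0.42. In Cxcl9 macrophages 8 of 16 tested genes were higher, against 12.6% of all genes, and 0 lower. Higher were H2-T23 (0.99), H2-K1 (0.72), H2-D1 (0.41) and the receptors Klrb1b (4.34), Klra3 (4.29), Klri1 (3.04) and Cd69 (2.81), and Ptpn6 (0.61). Of these Klrb1b, Klra3 and Klri1 passed the filter on low counts only through Cxcl9 macrophages. In the macrophages with Lyve1, Timd4 or Folr2 UMIs 7 of 15 were lower, against 13.4% of all genes, led by Cd69 (-2.44), Klrb1b (-2.39) and Klra3 (-2.07), with Ptpn6, H2-T23, H2-K1 and Tyrobp at -0.45 to -0.25. Klra3 passed there only through the macrophages without such UMIs.

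Within T cells 1 of 11 tested genes of the list was higher in CD8 than in CD4 T cells, Klra3 (log2 fold change 4.66), where 3.38% of all genes were, and it passed the filter on low counts only through CD8 T cells. In cycling CD8 T cells 2 of 16 were higher, Klra8 (2.69) and the NKG2D ligand Ulbp1 (1.72), where 12.6% of all genes were. Lower there were 7 of 16, against 9.96% of all genes, namely Hcst (-0.92), Tyrobp (-0.66), Klra9 (-2.23), Inpp5d (-0.44), H2-T23 (-0.45), H2-D1 and H2-K1 (both -0.28). Klra8 passed the filter only through cycling cells and Klra9 only through the others. In monocytes against macrophages Clec2i (1.71) and Tyrobp (0.48) were higher and H2-T23 lower (-0.59), 3 of 14, where 8.2% of all genes were higher and 12.4% lower, and Clec2i passed the filter only through monocytes.

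Over the 45 sums of a library and a gate, the genes most like Klrd1 in log2(CPM + 1) were Ms4a4b (Pearson r 0.87), Gzmb (0.87) and Ctsw (0.87), among 6977 genes. Those most like Klrg1 were Ctsw (0.85), Gzma (0.84) and Serpinb6b (0.84), and those most like Klra2 were Cd300a (0.97), Il1b (0.94) and Nfam1 (0.93). The points share libraries and differ in depth, so these values are a description of which classes hold the transcripts.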

How the data were processed

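Deposited 10x matrices of raw UMI counts per gene and barcode were used as the authors left them. Cell Ranger and Seurat, both at version 3, and the builds mm10 and GRCh38 are named in the submitters' processing notes, with no roles. Gene symbols come from the deposited feature tables, and positions from GENCODE on GRCm38, where 31011 of 31053 identifiers (99.86%) matched. Barcodes with at least 500 UMIs, 200 genes and at most 10% mitochondrial UMIs were kept, and Scrublet doublets (scanpy 1.11.5, expected rate 0.8% per 1000 cells) were removed, 1110 in all. Cells were gated on marker UMIs. CD8 and CD4 T cells had at least 2 Cd3 UMIs, macrophages at least 3 UMIs of C1q genes and 2 of Csf1r, Adgre1 and Fcgr1, and lymphocytes at most 1 UMI of other lineages.

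Raw counts were summed per library and gate (at least 10 cells), and the sums went into edgeR 4.0.16 (R 4.3.3) with TMM scaling, filterByExpr and the quasi-likelihood test, Benjamini-Hochberg adjustment running over every gene fitted (threshold 0.05). Libraries were the replicates. Since hearts were pooled and no source ties mice to libraries, p-values measure the spread between libraries only. Comparisons of classes had the library as a block, because both classes come from the same library. CPM is UMIs per 1000000 UMIs of the gate, and its intervals and those of shares cover counting error only. DESeq2 1.42.0 and other settings were alternatives. The fit code was run on simulated counts with changes planted in genes of higher counts and the same set spread for all genes. That run checks the code, and not how often the fits err on these libraries.

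The 9 genes, the lists and the gates were chosen with earlier results of these data known. All 9 are named in every comparison that gives them a value, and genes of the related list where called or where they are direct partners. A planned split of the CD8 T cells by state is not reported here.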

Additional observations from a re-analysis of the deposited data

How the results depend on the processing

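Of 753 alternative log2 fold changes of single genes, 704 kept their direction and their side of the threshold. With no filter on low counts, 2 of the 9 genes were called instead of 0 between disease and control in CD8 T cells and in macrophages, and 1 instead of 0 for the class by group term. With single libraries left out the term gave 0 to 1 call, the 1 without control replicate 1. Monocytes gave 0 to 1, with 0 without disease replicate 5. DESeq2 gave 1 call in cycling cells and 0 in monocytes. With no replicate block, that is without pairing the classes by library, 0 genes were called in CD8 over CD4 T cells (1 tested), in cycling and Lyve1, Timd4 or Folr2 cells and in monocytes, while 6 stayed called in NK over CD8 T cells and 2 in Cxcl9 macrophages. The cause was not tested. No paired analysis was possible between disease and control because these groups share no replicate number.

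Fold changes that changed sign were not called in either setting. Klrd1 in NK over CD8 T cells was -0.12 with no filter, -0.22 with Ncr1 required, and -0.18 to 0.31 with single libraries left out. Over all cells leaving out a library gave -0.31 to 1.55 for Klrc2, -0.16 to 0.87 for Klra7 and -0.073 to 3.19 for Klra2, each lowest without disease replicate 4. In NK cells it gave -0.12 to 0.45 for Klrc1, -0.81 to 0.28 for Klrc2, -0.032 to 0.53 for Klre1 and -0.39 to 0.052 for Klrk1, which was 0.13 with Ncr1 required. For the class by group term it gave -1.08 to 0.26 for Klrd1 and -1.16 to 1.20 for Klrg1, which was 0.081 with Ncr1 required. Klrk1 in monocytes ran from -0.35 to 0.94. Klrc2 in cycling cells was -0.024 with no UMI of other lineages allowed, and Klrd1 in Cxcl9 macrophages -0.0027 with a stricter gate.

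Over all genes the calls between disease and control ran from 124 to 1728 over all cells (1033 as reported), from 3 without disease replicate 5, 27 without disease replicate 4 and 72 without control replicate 1 to 840 in CD8 T cells (414), from 25 to 154 in NK cells (83) and from 253 to 1435 in macrophages (788). Between classes they ran from 149 to 813 in NK over CD8 T cells (470), 16 to 489 in CD8 over CD4 (307), 243 to 1922 in cycling (1930), 1234 to 2199 in monocytes (1994), 1047 to 2658 with Cxcl9 (2586), 425 to 2699 with Lyve1, Timd4 or Folr2 (2558) and 0 to 20 for the class by group term (0).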
